A study of Mus musculus with 4 samples.

Results

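The 10 genes described here encode transcription factors of the AP-1 group (Fos, Fosb, Fosl2, Jun, Junb, Jund and Atf3) and of the EGR family (Egr1, Egr2 and Egr3). They were taken by gene identifier from the authors' table of gene-level values, which holds 55082 identifiers in 53139 loci, and all 10 were present, each alone in its locus. RNA was sequenced from mouse macrophages obtained from MCA fibrosarcomas of the tumour labelled 9609 parent. All 4 samples carry the genotype label WT. In culture, 2 samples had received MEK1-hi exosomes and 2 had received MEK1-low exosomes, which the label also marks GFP. MEK1 content and whatever else the GFP mark stands for therefore cannot be told apart, and no macrophages without exosomes were among the samples.

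AP-1 factors bind DNA as pairs held together by a leucine zipper. JUN proteins pair with one another or with FOS proteins, whereas FOS proteins need a partner from another family. EGR proteins bind GC-rich sites through zinc fingers. Many of these genes are immediate-early genes, which means that they are transcribed within minutes of a stimulus without new protein synthesis, and their mRNAs are short-lived. The kinase MEK1 activates ERK, which phosphorylates ternary complex factors on the promoters of Fos and Egr1 and also stabilises FOS proteins. In macrophages the same genes respond to Toll-like receptor ligands, to the growth factor CSF1, to attachment and to handling of the cells.

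Levels are the authors' group values in FPKM (fragments per kilobase of transcript, scaled to library size), 1 per group, so levels of different genes can be compared per length. The file gives no value for a single sample. No SD can be given, the depth of each sample is unknown, and every test of a gene is the Cuffdiff test of the authors' deposited table, where a gene counts as called if Cuffdiff tested it and its q-value was under 0.05. Nothing in the labels tells whether replicate samples are separate cultures or animals, and p-values then cover only the spread between the samples at hand, which may be technical. Cuffdiff tested 12648 loci and 8 of the 10 genes. Macrophage transcripts were abundant in both groups, with all 12 macrophage markers tested and a summed level of 21014 FPKM in the MEK1-low group and 22296 FPKM in the MEK1-hi group. Most of that sum was Lyz2, at 12303 and 13148 FPKM, and the lowest of the 12, Mertk, stood at 47.5 and 48.0 FPKM. The sum thus mainly follows Lyz2. Among the 12 markers, 9 were higher in value in the MEK1-hi group and 3 were lower, of which Cd14 was called. A lower level in bulk RNA can mean fewer cells that express a gene or less RNA in each, and these cannot be told apart.

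Macrophages that received MEK1-hi exosomes had lower levels of Jund, the only one of the 10 genes called. Fos, Junb, Egr2 and Atf3, the 4 most abundant of the 10, were lower by 14.3% to 25.6% with MEK1-hi exosomes and did not pass the test. Jun and Fosl2 differed by under 4%, and Egr1, present at a low level, was higher and did not pass either. Fosb and Egr3 were close to 0 in both groups and were not tested.

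**Figure D1:**
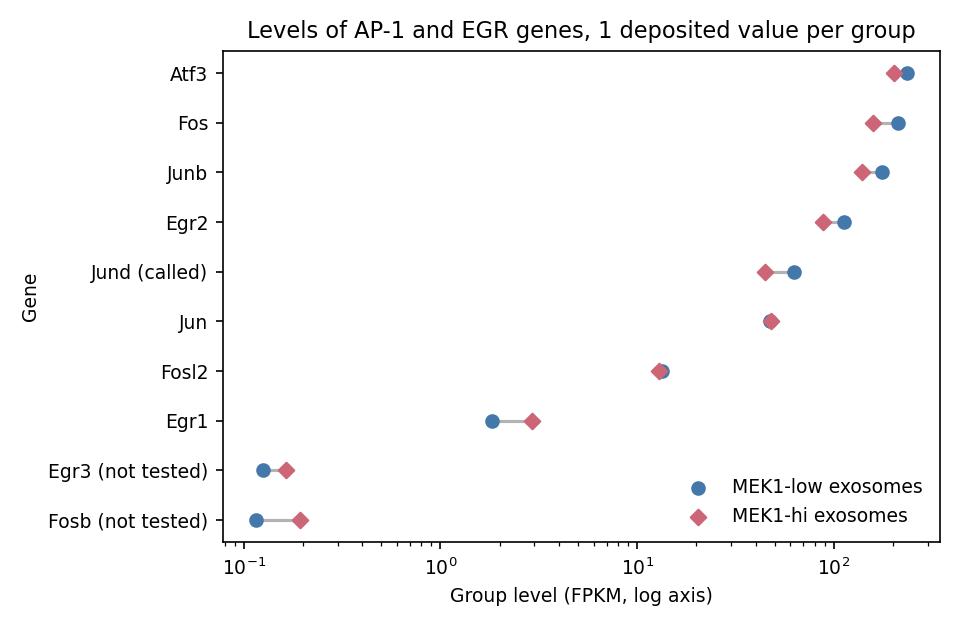
Level of each of the 10 genes in FPKM on a log axis, with 1 circle for the MEK1-low group and 1 diamond for the MEK1-hi group, joined by a grey line. Atf3, Fos, Junb and Egr2 lie at 113 FPKM or more with MEK1-low exosomes, and for these 4 and Jund the diamond lies to the left of the circle. Each symbol is a single deposited group value, so there are no error bars.

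The levels spanned more than 3 orders on the log10 axis. From high to low with MEK1-low exosomes, the tested genes ranked Atf3, Fos, Junb, Egr2, Jund, Jun, Fosl2 and Egr1. With MEK1-hi exosomes only Jund and Jun changed places. Without values per sample, it is not known which neighbours in this order differ beyond the spread between samples. Atf3 stood at rank 381 and Fos at rank 434 of the 12648 tested loci with MEK1-low exosomes, and Egr1 at rank 10558.

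Among the JUN genes, Jund, whose product is the JUN protein present in most resting cells and which is often described as a brake on growth, fell from 63.0 FPKM in the MEK1-low group to 44.7 FPKM in the MEK1-hi group. This fall of 28.9% (log2 fold change -0.49) had p = 0.00095 and q = 0.0397 in the authors' deposited table. The call lies near the edge of what that test picked out. Of the 309 called loci, 3 had a smaller absolute log2 fold change than Jund, and 6 had a higher q-value in the authors' deposited table. Jund no longer passed where a q-value under 0.01 was required.

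Jund has a single exon, at chromosome 8 from 70698949 to 70700616 on the plus strand (mm10). An annotated antisense gene on the minus strand, Gm11175, lies within that exon. Gm11175 itself stood at 8.89 FPKM in the MEK1-low group and 1.05 FPKM in the MEK1-hi group, which did not pass (p = 0.239, q = 0.999 in the authors' deposited table). The library kit marks the strand of the RNA, but the sources used here do not give whether the authors' counting used it. Without it, reads of Jund and Gm11175 cannot be told apart, and the part of the antisense gene in the Jund value was not tested.

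Junb, which is commonly induced together with Fos, stood at 176 FPKM in the MEK1-low group and 138 FPKM in the MEK1-hi group. Its log2 fold change of -0.35 was not called (p = 0.0158, q = 0.296 in the authors' deposited table). The single-exon locus in that table runs on chromosome 8 from 84976910 to 84978718 on the minus strand. GENCODE M21 extends Junb down to 84974484 through a noncoding transcript that overlaps Prdx2, a peroxiredoxin gene on the opposite strand. Prdx2 stood at 152 and 133 FPKM and was not called (p = 0.308, q = 0.999 in the authors' deposited table). The locus of the Junb row does not reach Prdx2. Jun, the founding member of the family and the target of the kinase JNK, stood at 47.2 and 47.9 FPKM (log2 fold change 0.02, p = 0.887, q = 0.999 in the authors' deposited table). Jun also has a single exon, on chromosome 4 from 95049034 to 95052222 on the minus strand. The locus that the table gives for its row is much longer and runs to 95167318, the end of the antisense gene Junos, which overlaps the start of Jun. Junos is listed in a separate row, joined with another gene, at 13.2 and 12.0 FPKM. As for Jund, reads of the overlap cannot be told apart if strand was not used. The members of this family thus ranged from a called fall of Jund to values of Jun that were nearly equal. Whether the changes of Jund and Jun differ from each other was not tested.

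Added together, the JUN genes came to 286 FPKM in the MEK1-low group and 231 FPKM in the MEK1-hi group. Junb made up 61.6% of that sum in the MEK1-low and 59.9% in the MEK1-hi group. The share of Jund was 22.0% and 19.4%, and that of Jun was 16.5% and 20.7%. For each Jun transcript per length there were 1.34 of Jund in the MEK1-low and 0.934 in the MEK1-hi group, which is the exchange of rank described above. These shares describe mRNA and say nothing of how much protein of each kind was present.

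Fos, the partner of JUN proteins in the classical AP-1 dimer, stood at 211 FPKM in the MEK1-low group and 157 FPKM in the MEK1-hi group. It was 25.6% lower, a log2 fold change of -0.43, and did not pass (p = 0.0099, q = 0.221 in the authors' deposited table). The gene has 4 exons at chromosome 12 from 85473890 to 85477273 on the plus strand. Fosl2, which encodes FRA2, a FOS protein that lacks the strong activation domain of FOS, stood at 13.4 and 12.9 FPKM (log2 fold change -0.05, p = 0.718, q = 0.999 in the authors' deposited table). It lies at chromosome 5 from 32135801 to 32157842 on the plus strand. Fosb, known for a truncated form that builds up under repeated stimulation of neurons, was nearly silent, at 0.115 and 0.192 FPKM, and was not tested. Its locus is chromosome 7 from 19302696 to 19310051 on the minus strand. Fos alone therefore made up 94.0% of the summed level of these 3 genes in the MEK1-low and 92.3% in the MEK1-hi group. Fos exceeded Jun 4.48-fold in the MEK1-low and 3.28-fold in the MEK1-hi group.

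Among the EGR genes nearly all transcript came from Egr2, which is also known for its role in macrophages and in the myelination of peripheral nerves. Egr2 stood at 113 FPKM in the MEK1-low group and 88.6 FPKM in the MEK1-hi group, a log2 fold change of -0.35 that was not called (p = 0.0198, q = 0.336 in the authors' deposited table). Its locus is chromosome 10 from 67535475 to 67542188 on the plus strand. Egr1, a factor that is often used as a readout of ERK activity, stood at 1.84 and 2.90 FPKM. Egr1 was thus 1.58-fold higher in the MEK1-hi group (log2 fold change 0.66) and was not called (p = 0.00555, q = 0.148 in the authors' deposited table). This was the largest log2 difference among the 8 tested genes, from the lowest level. With 5 FPKM added to both values, a scale that damps low genes, it was 0.21. Egr3, which has roles in lymphocytes and muscle spindles, stood at 0.125 and 0.164 FPKM and was not tested. It lies at chromosome 14 from 70077203 to 70082614 on the plus strand.

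Egr2 was lower and Egr1 higher in value with MEK1-hi exosomes, though neither was called. Egr2 made up 98.3% of the summed EGR level in the MEK1-low and 96.7% in the MEK1-hi group, and Egr1 made up 1.59% and 3.17%. The ratio of Egr2 to Egr1 was 61.7 in the MEK1-low and 30.5 in the MEK1-hi group. No test of this ratio is possible from 1 value per group.

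**Figure D2:**
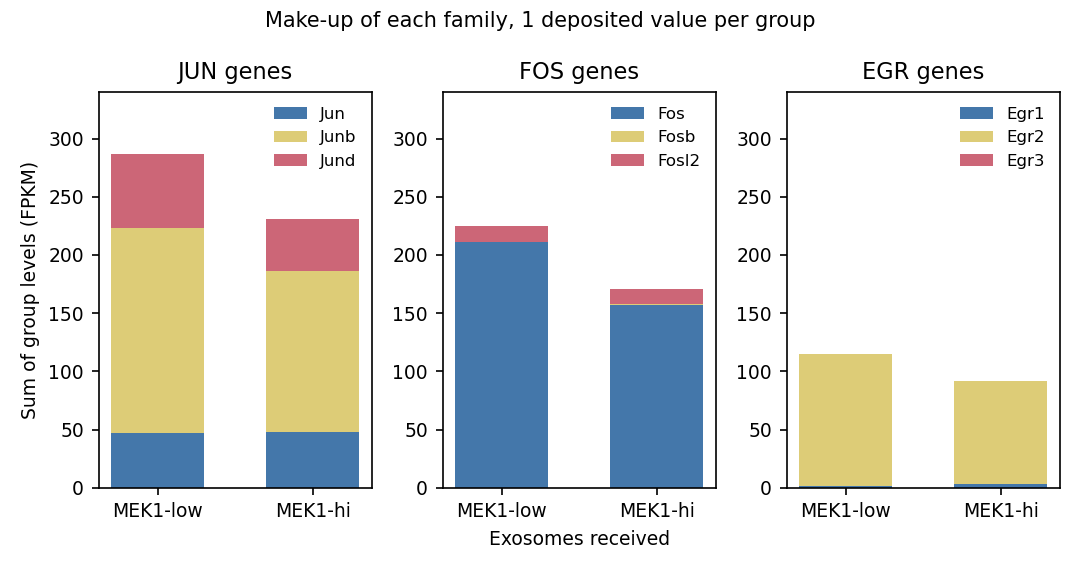
Stacked bars of the group levels in FPKM, for the JUN, FOS and EGR genes, with 1 bar for each exosome group and 1 colour for each gene. The height of the JUN bar is 286 FPKM in the MEK1-low group and 231 FPKM in the MEK1-hi group, and Fos and Egr2 fill almost all of the bars of their families. Fosb and Egr3 are too low to be seen.

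Atf3, a stress-induced factor that pairs with JUN proteins and dampens the transcription of inflammatory genes in macrophages, was the most abundant of the 10. It stood at 236 FPKM in the MEK1-low group and 202 FPKM in the MEK1-hi group, 14.3% lower. The log2 fold change of -0.22 was not called (p = 0.127, q = 0.857 in the authors' deposited table). Atf3 lies at chromosome 1 from 191170296 to 191218039 on the minus strand. The ratio of Atf3 to Fos was 1.12 in the MEK1-low and 1.29 in the MEK1-hi group.

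Fos, Junb, Egr2 and Atf3 are the 4 most abundant of the 10 genes, and a promoter window of each is shown. Whether sites in these windows act in these macrophages was not tested. The 250 bases before a start site are given from RefSeq on build GRCm38.p6, 5′ to 3′ on the strand of the gene. Capitals mark matches to the motifs searched. The windows are chr12:85473640-85473889 (plus strand) for Fos, chr8:84978749-84978998 (minus strand) for Junb, chr10:67537619-67537868 (plus strand) for Egr2 and chr1:191183334-191183583 (minus strand) for Atf3. Egr2 has several annotated starts with a window each, and that of the outermost start, at 67535499, held no match to the motifs searched. The Egr2 window shown belongs to a start inside the locus, within an intron of longer transcripts. The Atf3 window likewise lies inside a longer transcript and its last 7 bases are exonic. The window listed for Jund is not shown, since its RefSeq start lies 1210 bases from the nearest annotated start in GENCODE M21.
Fos: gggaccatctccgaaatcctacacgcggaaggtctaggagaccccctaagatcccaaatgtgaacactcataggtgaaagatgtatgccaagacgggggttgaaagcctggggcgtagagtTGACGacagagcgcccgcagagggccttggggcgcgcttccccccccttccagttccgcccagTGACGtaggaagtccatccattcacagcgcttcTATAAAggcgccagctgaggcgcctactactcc
Junb: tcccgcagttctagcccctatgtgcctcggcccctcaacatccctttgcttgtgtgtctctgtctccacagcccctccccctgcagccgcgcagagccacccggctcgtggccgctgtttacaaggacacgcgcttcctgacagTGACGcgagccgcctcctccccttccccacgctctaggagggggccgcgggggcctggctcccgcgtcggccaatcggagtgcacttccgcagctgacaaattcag
Egr2: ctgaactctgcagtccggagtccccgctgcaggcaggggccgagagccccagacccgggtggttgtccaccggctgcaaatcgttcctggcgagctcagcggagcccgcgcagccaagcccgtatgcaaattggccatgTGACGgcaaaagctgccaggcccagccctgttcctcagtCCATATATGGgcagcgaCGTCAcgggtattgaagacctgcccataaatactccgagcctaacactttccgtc
Atf3: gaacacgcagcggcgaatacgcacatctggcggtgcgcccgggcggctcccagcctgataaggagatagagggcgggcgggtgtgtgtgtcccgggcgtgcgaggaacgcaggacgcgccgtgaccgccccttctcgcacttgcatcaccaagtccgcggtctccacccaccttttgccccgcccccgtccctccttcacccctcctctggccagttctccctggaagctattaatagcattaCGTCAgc

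Both strands were searched for the serum response element (the CArG box, bound by SRF), the cAMP response element TGACGTCA (bound by CREB and ATF proteins), the AP-1 site TGANTCA, the EGR site GCGTGGGCG, the NF-kB site and the TATA box TATAAA. The core of the cAMP response element, TGACG, which is contained in the full site, was added after the sequences had been seen. The promoter table held windows for 8 of the 10 genes. Matches to TGACG stood in windows of 5 of these 8 (Fos, Fosb, Junb, Egr2 and Atf3), beside 19.8% of the 27025 genes in the table. Since these letters were picked from the same windows, the count only describes them and is not evidence of enrichment. The 8 include a window of Jund whose start lies 1210 bases from the nearest GENCODE M21 start, and a window of Fosl2 that is exonic throughout. In Fos one of its matches begins 66 bases before the start, and the TATA box begins 33 bases before it. In Egr2 a serum response element, CCATATATGG, begins 72 bases before the start and lies between TGACG on the plus strand and TGACG on the minus strand. A serum response element was found in windows of 1 of the 8 genes, Egr2, beside 1.62% of all genes. Egr2 has several windows, which gives more room for a match. The TATA box was found in 1 of the 8, Fos, beside 14.3% of all genes. The Fos window held 0 matches to the serum response element. Bases further upstream of Fos were not searched, so this does not show that the gene lacks the element. The full cAMP response element, the AP-1 site, the EGR site and the NF-kB site had 0 matches in the 8 genes, which says only that these letters are not in these windows.

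Set against all loci, the 1 call among the 8 tested genes was a lower one, and 0 were called higher. Over the 12648 loci tested, 1.69% were called lower, 0.751% higher and 2.44% in either direction. By the unadjusted p of the authors' deposited table, with 0.05 as the limit, 4 of the 8 genes were lower (Fos, Junb, Jund and Egr2) and 1 was higher (Egr1), beside 5.12% lower and 3.53% higher over all loci tested, or 8.66% in either direction. The genes were chosen with earlier results of these data known, so these counts are a description. Their log2 fold changes on the scale of FPKM + 1 had a median of -0.28 and ran from -0.48 to 0.46. The same median over the 11804 loci tested at 1 FPKM or more was 0.00, with the middle 50% of loci between -0.14 and 0.13. Thus 6 of the 8 genes had lower values with MEK1-hi exosomes, as did 49.8% of those loci.

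Most of these differences were smaller than any that the deposited test called. No called locus had an absolute log2 fold change under 0.48, and 6 of the 8 tested genes were below that size. Between the log2 fold changes of Jund and Fos lay 215 tested loci, Fos included, of which 2 were called. Thus no locus of the table was called at an absolute log2 fold change as small as that of Fos, Junb or Egr2.

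**Figure D3:**
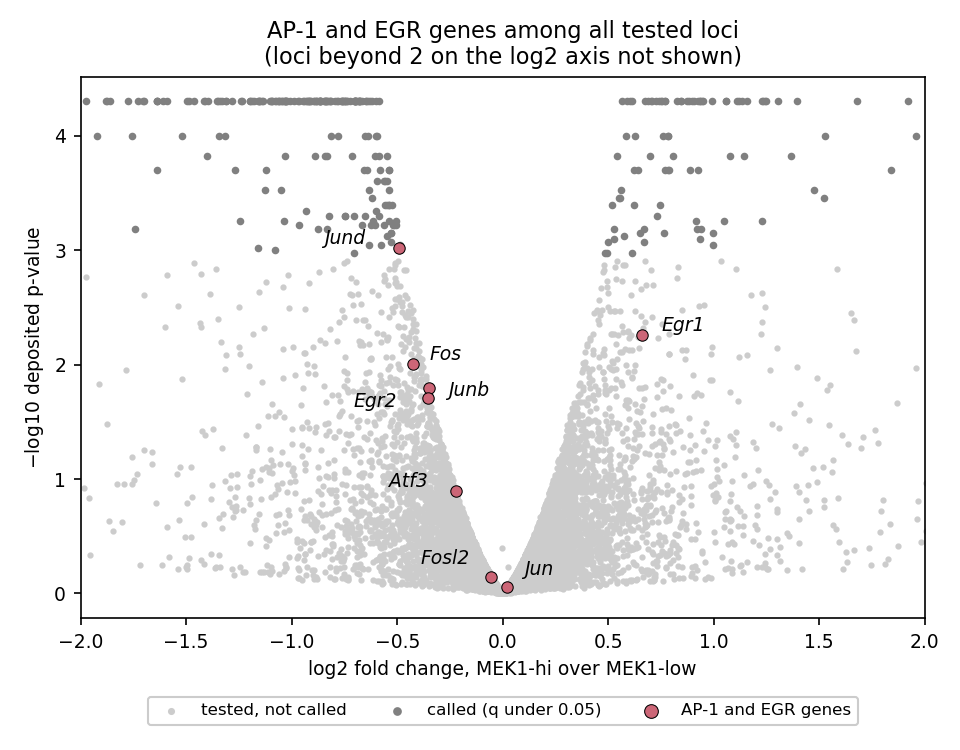
Log2 fold change of MEK1-hi over MEK1-low (horizontal) against the negative log10 of the deposited p-value (vertical) for the tested loci, 1 point each, with loci beyond 2 on the log2 axis not shown. Dark grey points are called, light grey points are not, and the 8 tested AP-1 and EGR genes are outlined and named. Jund, at -0.49, lies at the lower border of the called loci, and Fos, Junb, Egr2 and Atf3 lie on the inner edge of the left arm.

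Other members of the same protein families were called in neither direction. None of the 13 other FOS, BATF, ATF and CREB family genes, all tested, was called by Cuffdiff, with 0 also at an unadjusted p under 0.05, and their median log2 fold change was -0.08. Atf4, the factor of the amino acid response, stood at 130 and 122 FPKM, and Batf3, a partner of JUN proteins in dendritic cells, at 37.8 and 32.9 FPKM. Of the 5 MAF genes, basic leucine zipper factors related to AP-1, Cuffdiff called 0, with 1 higher and 1 lower at an unadjusted p under 0.05. Mafg, in a locus joined with Sirt7, stood at 103 FPKM in both groups. The co-repressors that EGR proteins recruit, Nab1 (20.5 and 19.3 FPKM) and Nab2 (24.7 and 26.0 FPKM), were not called, and Egr4 was listed at 0 in both groups.

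In the lists of upstream regulators looked at here, a single kinase gene was called. They cover SRF with its partners and the JNK and p38 kinases, and the genes of MEK1 and ERK are in neither. None of 10 genes for SRF, its partner factors and the RSK and MSK kinases was called by Cuffdiff, with 0 at an unadjusted p under 0.05, and their median was 0.01. It was 0.11 with joined loci left out. Rps6ka1, which encodes RSK1, a kinase directly below ERK, stood at 42.3 and 43.2 FPKM. Rps6ka4, which encodes MSK2 and shares its locus with 2 other genes, stood at 53.9 and 51.8 FPKM. Of the 8 tested genes of the JNK and p38 kinases, Mapkapk2, which encodes the kinase MK2 that stabilises inflammatory mRNAs below p38, fell from 151 to 106 FPKM, a log2 fold change of -0.52 (q = 0.0273 in the authors' deposited table). The other 7 were not called, and the median of the list was -0.12. Over all loci tested, 1.69% were called lower and 0.751% higher. Both lists of regulators were chosen with earlier results of these data known, so their counts are a description. The call of Mapkapk2 was also lost at a q-value under 0.01.

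Other immediate-early genes, 44 of them tested, had 4 called lower and 1 called higher, and 31 with lower values. Over all loci tested, 1.69% were called lower and 0.751% higher, and 49.8% of those at 1 FPKM or more had lower values. The list of these other immediate-early genes was chosen with earlier results of these data known, so its counts are a description. Their median log2 fold change was -0.12. By the unadjusted p of the authors' deposited table, with 0.05 as the limit, 11 were lower and 1 was higher. Over all loci tested, 5.12% were lower and 3.53% higher at that limit. Socs3, an inhibitor of cytokine signalling, fell from 14.9 to 5.66 FPKM, and Cebpb, a factor of inflammatory and acute-phase genes, from 299 to 121 FPKM. Nfkbia, which encodes the NF-kB inhibitor IkB alpha, fell from 149 to 89.7 FPKM. Nfkbiz, an atypical IkB protein named here after its values were seen, fell from 15.7 to 9.70 FPKM. Id1, an inhibitor of basic helix-loop-helix factors, rose from 50.2 to 93.3 FPKM. These 5 shared p = 5e-05 and q = 0.00349 by the Cuffdiff test of the authors' deposited table, so these values do not rank them. Each of the 5 had a larger absolute log2 fold change than Jund.

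Genes known as AP-1 targets went both ways. Of 21 tested, 4 were called higher and 5 lower, with a median of -0.02. Over all loci tested, 0.751% were called higher and 1.69% lower. This list and that of the EGR targets below were chosen with earlier results of these data known, so their counts are a description. Ccl2, a chemokine that attracts monocytes, rose from 9.10 to 47.9 FPKM, and the collagenase gene Mmp13 from 37.4 to 83.3 FPKM. The interleukin 1 beta gene Il1b fell from 6.19 to 1.69 FPKM, and the neutrophil chemokine gene Cxcl2 from 43.9 to 18.1 FPKM. Among 14 tested genes known as EGR targets, 3 were called lower and 0 higher, with a median of -0.06. These were Il1b, the adhesion molecule gene Icam1, from 38.9 to 21.4 FPKM, and the cytokine gene Tnf, from 90.6 to 49.8 FPKM. Il1b and Tnf stand in both lists and are also targets of NF-kB. By the unadjusted p of the authors' deposited table, with 0.05 as the limit, 1 EGR target was higher and 4 were lower. Over all loci tested, 3.53% were higher and 5.12% lower at that limit.

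**Figure D4:**
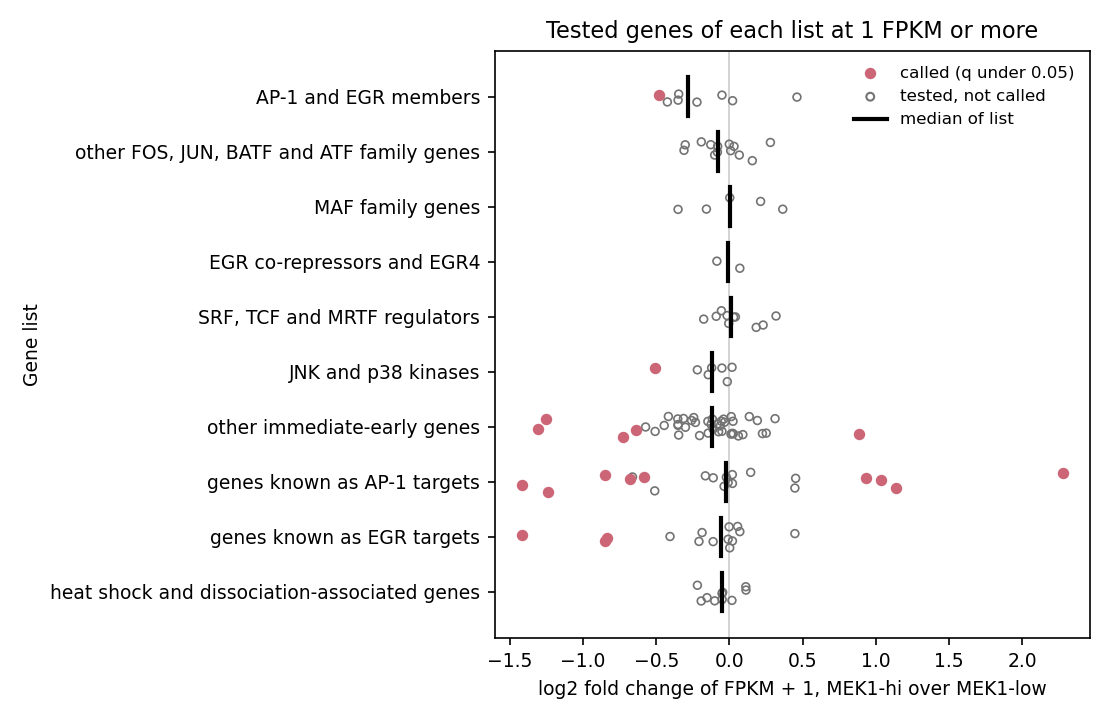
Log2 fold change of FPKM + 1 for each tested gene at 1 FPKM or more, by gene list, with filled points for called genes, open points for the others and a black bar at the median of each list. The AP-1 and EGR genes have a median of -0.28 with 1 filled point, while the known AP-1 targets have filled points on both sides of 0 around a median of -0.02. Vertical scatter within a list only separates the points.

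Immediate-early genes also respond to dissociation and handling of tissue, together with heat shock genes. Of 13 heat shock and dissociation-associated genes, 10 were tested and Cuffdiff called 0, with 0 at an unadjusted p under 0.05 and a median of -0.05. Hsp90ab1, a cytosolic chaperone, stood at 526 and 508 FPKM and Hspa8, in a locus joined with small nucleolar RNA genes, at 208 and 201 FPKM. The heat-inducible Hspa1a and Hspa1b were under 1 FPKM in either group and not tested. Handling of the cells itself was not measured and its part in the levels of Fos, Junb, Egr2 and Atf3 was not tested.

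The sum over each list of markers of other cells was lower with MEK1-hi exosomes. The 10 neutrophil markers summed to 73.5 FPKM in the MEK1-low group and 53.5 FPKM in the MEK1-hi group, with 2 tested and 6, Ly6g, S100a9, Mpo and Elane among them, listed at 0 in both groups. Nearly all of that sum came from the 2 tested genes, the G-CSF receptor gene Csf3r at 37.8 and 30.8 FPKM and the calcium-binding protein gene S100a8 at 35.5 and 22.6 FPKM, which lie above Fosl2 and below Jun in level. The 10 T and NK cell markers summed to 9.02 and 6.45 FPKM, the 7 dendritic cell markers to 12.996 and 10.7 FPKM, and the 10 fibroblast and sarcoma markers to 14.3 and 13.7 FPKM. Most of the T and NK sum was Cd4, at 6.52 and 4.52 FPKM. Cd3d stood at 0.0222 and 0.0286 FPKM and Trac at 0.210 and 0.124 FPKM. Most of the dendritic cell sum was Fscn1, at 8.25 and 5.87 FPKM. Clec9a, in a locus joined with Clec1b, was higher in value, at 3.97 and 4.35 FPKM, and Flt3 stood at 0.0348 and 0.0339 FPKM. The 5 B cell markers summed to 2.25 and 2.12 FPKM and the 6 endothelial markers to 4.52 and 3.20 FPKM. Cuffdiff called 0 of the tested genes in these lists, with 1 neutrophil marker, S100a8, lower at an unadjusted p under 0.05. Their part in the lower level of Jund was not tested. Among the 12 macrophage markers 1 was called, Cd14, which fell from 213 to 136 FPKM (log2 fold change -0.65, q = 0.00349 in the authors' deposited table). Csf1r, at 855 and 672 FPKM, and Adgre1, at 387 and 318 FPKM, were also lower in value and were not called. The other 9 were higher in value, with 0 called, and the median of that list was 0.08.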

How the data were processed

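RNA from 4 macrophage samples, 2 per exosome group, was sequenced as paired-end reads of 100 bp. FastQC 0.73, TopHat, Cufflinks, Cuffdiff and build mm10 are named in the submitters' processing notes, without settings. Per the file headers, the authors deposited 1 FPKM value per group with Cuffdiff's test statistic (a score), p-value and q-value. GFP exo was read as MEK1-low through the treatment label. Depth is unknown, since FPKM keeps no counts.

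Log2 fold changes were computed as MEK1-hi over MEK1-low, for lists on FPKM + 1 over tested loci at 1 FPKM or more. Calls are the deposited q-value under 0.05, over all loci tested. The 10 genes and the lists were chosen with earlier results of these data known. Named beside them were up to 4 called genes of each list, or the 2 of highest mean where there were 0. One gene taken by this rule is not reported here. Symbols and positions came from GENCODE M21, and promoters from RefSeq. Counting and adjustment were tested on simulated data. Alternatives covered thresholds, pseudocounts, filters and scaling. Python 3.11.15, pandas 2.3.3 and numpy 2.4.6 were used.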

Additional observations from a re-analysis of the deposited data

How the results depend on the processing

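The count of AP-1 and EGR genes called lower was 1 at a q-value under 0.05 and under 0.1, with q recomputed over loci at 1 FPKM or more and with an absolute test statistic of at least 2, and 0 at a q-value under 0.01. The count called higher was 0 under each of these. Scaling to equal FPKM totals moved every log2 fold change by 0.04. None of the 10 genes changed sign under the 4 pseudocount and scaling alternatives, and only the low genes moved by more than 0.1: Egr1 to 0.21 with a pseudocount of 5, Fosb (0.75) to 0.44 and 0.02, and Egr3 (0.40) to 0.23 and 0.01, with pseudocounts of 0.1 and 5. No paired analysis was possible because the table gives 1 value per group, and for the same reason no replicate could be left out. Unknown depth limits what can be said of Fosb, Egr3 and Egr1.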
